A study of Mus musculus with 168 samples.

Results

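The minor spliceosome proteins and Stasimon, 9 genes in all, were described here across neuron types, ages and genotypes, chosen by name and not by their values. Earlier results of these data were known when they were chosen. They were 9 of the 39410 genes in the table. Most of them (Rnpc3, Snrnp25, Snrnp35, Snrnp48, Zcrb1, Zmat5, Pdcd7 and Zrsr2) encode proteins of the minor spliceosome, and the other, Tmem41b, encodes Stasimon. RNA came from the Delta7 mouse model of spinal muscular atrophy (SMA), in which neurons were cut from tissue sections by laser and about 150 cells were pooled per tube. SMA mice were Smn-/-/SMN2+/+/SMN∆7+/+ and their littermate controls were Smn+/+/SMN2+/+/SMN∆7+/+, so the controls carried the same human transgenes and differed in mouse Smn. The 6 neuron populations were sampled at postnatal days 2, 5 and 10: the red nucleus of the midbrain and the ocular, facial, vagus, hypoglossal and lumbar motor neurons. There were 168 libraries from 34 mice, 19 SMA and 15 control, which gave 160 samples of a mouse and a population (72 control, 88 SMA) in 36 groups of 3 to 7 mice. Ocular tubes contained both eye-movement nuclei in some mice and in others just the oculomotor or just the trochlear, and per the labels the lumbar control libraries of day 5 had reads of an earlier deposit added when they were mapped.

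Most introns are removed by the major spliceosome, which recognises the start of the intron with U1 and the branch point with U2. A small class, the U12-type introns, carries longer and more constant sequences at both places, which are read by the U11 and U12 small nuclear RNAs (snRNAs) joined in a single particle, the U11/U12 di-snRNP. The SMN protein, which is scarce in SMA, loads the ring of Sm proteins onto these snRNAs as it does onto U1 and U2. Stasimon is a transmembrane protein of the endoplasmic reticulum whose gene holds a U12-type intron, and loss of SMN has been reported to impair its splicing. The mRNAs of Rnpc3 and Snrnp48 carry pairs of U12-type 5′ splice sites that bind U11 and regulate the production of those proteins.

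The sequences below show the letters by which such introns and their snRNAs recognise each other. They were read from GENCODE M21 transcripts (GRCm38), from transcripts that hold the intron, and are written 5′ to 3′ on the strand of the gene. The capitals mark the 8 bases of the U12-type 5′ splice site, GTATCCTT, at the start of the intron, after the last 6 bases of the exon. In Tmem41b the intron is chr7:109979483-109980988 on the minus strand (intron 3 of 6, 5 of 8 or 4 of 7 by coding transcript), and in Snrnp48 it is chr13:38214668-38215063 on the plus strand. The Snrnp48 intron is spliced in a transcript not annotated as coding and lies within intron 4 of 8 of the coding transcripts. Polr2e (chr10:80036843-80036914, minus strand, intron 4 of 6) and Mapk9 (chr11:49874336-49878230, plus strand), which are other genes known for U12-type introns, are shown for comparison.
Tmem41b intron start: tattttGTATCCTTttatct
Snrnp48 intron start: tatgcaGTATCCTTtttgca
Polr2e intron start: tcgataGTATCCTTtactct
Mapk9 intron start: ctgaccGTATCCTTccccag

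A U12-type start, judged by the first 8 bases, was found in 0.461% of the introns whose start could be read in a transcript, in 149 genes. Readable introns were 38822 of 250875, those held by some annotated transcript, and need not stand for the rest. The end of the Tmem41b intron could not be read from the transcripts, and no end is given for Mapk9, so nothing is said of their branch points. At the other end, the last 40 bases of the Snrnp48 and Polr2e introns held a U12-type branch point, CCTTGAC, in capitals.
Snrnp48 intron end: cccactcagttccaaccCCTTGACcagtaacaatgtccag
Polr2e intron end: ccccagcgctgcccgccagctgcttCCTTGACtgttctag
The first 40 bases of the snRNAs show the stretches that pair with sites of these kinds, AAAGG at bases 3 to 7 of U11 (Rnu11, chr4:132270080-132270213, minus strand) and TAAGGAA at bases 19 to 25 of U12 (Rnu12, chr15:83149644-83149794, plus strand). Not every letter shown is complementary to them, since Mapk9 has C after GTATCCTT and both branch points have G after CCTT.
U11 snRNA start: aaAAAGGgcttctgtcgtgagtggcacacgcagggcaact
U12 snRNA start: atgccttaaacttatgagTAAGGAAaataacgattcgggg
The next sequences hold the paired sites of Rnpc3, in the 3′ UTR at chr3:113607237-113607256 (minus strand, 20 bases), and of Snrnp48, at chr13:38214668-38214693 (plus strand, 26 bases), with each copy in capitals.
Rnpc3 paired sites: GTATCCTTtcttGTATCCTT
Snrnp48 paired sites: GTATCCTTtttgcaaatgATATCCTT
Annotated transcripts were searched on the sense strand for GTATCCTT or ATATCCTT with a second copy within 30 bases. A pair was found in 4 of 21951 protein-coding genes (0.0182%), which were Rnpc3, Snrnp48, Slc8a1 and Vmn2r17. Introns were searched only where a transcript holds them, as for the Snrnp48 pair, so pairs in other introns would be missed. These are matches of letters. RPKM, reads per length of gene and per depth of library, is a value of the whole gene and does not measure whether an intron was removed.

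Library depth ranged from 0.342 to 16.3 M reads (median 5.89), and the lowest was a red nucleus library of a control mouse at day 10. Mouse Smn1, the deleted gene, averaged 26.7 ± 12.6 RPKM (SD, n = 72, range 4.32 to 63.3) in control samples. In SMA samples it averaged 0.257 RPKM, was listed at 0 in 70 of 88 and reached 4.24 in the highest. The summed level of 4 motor neuron markers averaged 741 to 1629 RPKM in the motor populations and 50.6 in the control red nucleus, whose own 2 markers summed to 405 there. In ocular motor neurons at day 10 the motor neuron sums did not overlap, at 985 (926 to 1024) in controls and 716 (452 to 875) in SMA mice. At other ages and in the other motor populations the genotypes overlapped in this sum. The red nucleus markers in ocular samples at day 10 summed to 9.67 (4.74 to 16.9) and 52.4 (9.07 to 176.9). Of 19 markers of other cells (5 astrocyte, 5 oligodendrocyte, 5 microglia and 4 vessel genes), the astrocyte gene Gfap was higher in SMA averaged over the 6 populations at day 5 (log2 difference 1.12, limma adjusted p = 0.0114) and day 10 (0.94, adjusted p = 0.00514), and no other marker passed at any age. The 5 astrocyte markers summed to a mean of 36.1 RPKM in controls and 38.1 in SMA at day 5, higher in 4 populations and lower in the vagus and red nucleus, with 3 of the 5 estimates below 0. At day 10 the sums were 34.0 and 43.5, and all 5 estimates were above 0. Libraries are numbered in the labels, and at day 2 the control libraries of 5 populations lay outside the range of the SMA numbers, some below it and some above it in each. In pooled cells, fewer cells of a type and less RNA per cell cannot be told apart.

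All 9 genes were detected in every control population. Zcrb1, an RNA-binding protein of the U11/U12 particle, was highest at 151 ± 37.2 RPKM (SD, n = 72 for each gene in this paragraph). Snrnp25, a U11 protein, followed at 65.8 ± 25.2, and Zmat5, a zinc-finger protein of the particle, at 34.9 ± 21.1. Snrnp48, the U11 protein that contacts the 5′ splice site, was at 20.7 ± 9.3, close to Zrsr2, which recognises the 3′ splice site of U12-type introns, at 20.3 ± 6.83. Below them lay Tmem41b at 15.5 ± 4.46 and Rnpc3, the protein that bridges the U11 and U12 sides of the particle, at 10.1 ± 5.4. The lowest were Snrnp35, a relative of the U1 protein Snrnp70, at 6.29 ± 4.17 and Pdcd7, a U11 protein, at 5.39 ± 2.48. The spreads of neighbours in this order overlapped, and no test was made between genes. Zmat5 was listed at 0 in 1 ocular control sample and in 1 red nucleus SMA sample, where 3 reads would have given 0.442 and 0.336 RPKM. In SMA samples the same order held from Zcrb1 (156.6 ± 40.7, n = 88) to Tmem41b (15.7 ± 4.86) and Rnpc3 (13.4 ± 8.16), while Pdcd7 (6.1 ± 3.27) and Snrnp35 (5.92 ± 3.5) changed places.

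**Figure D1:**
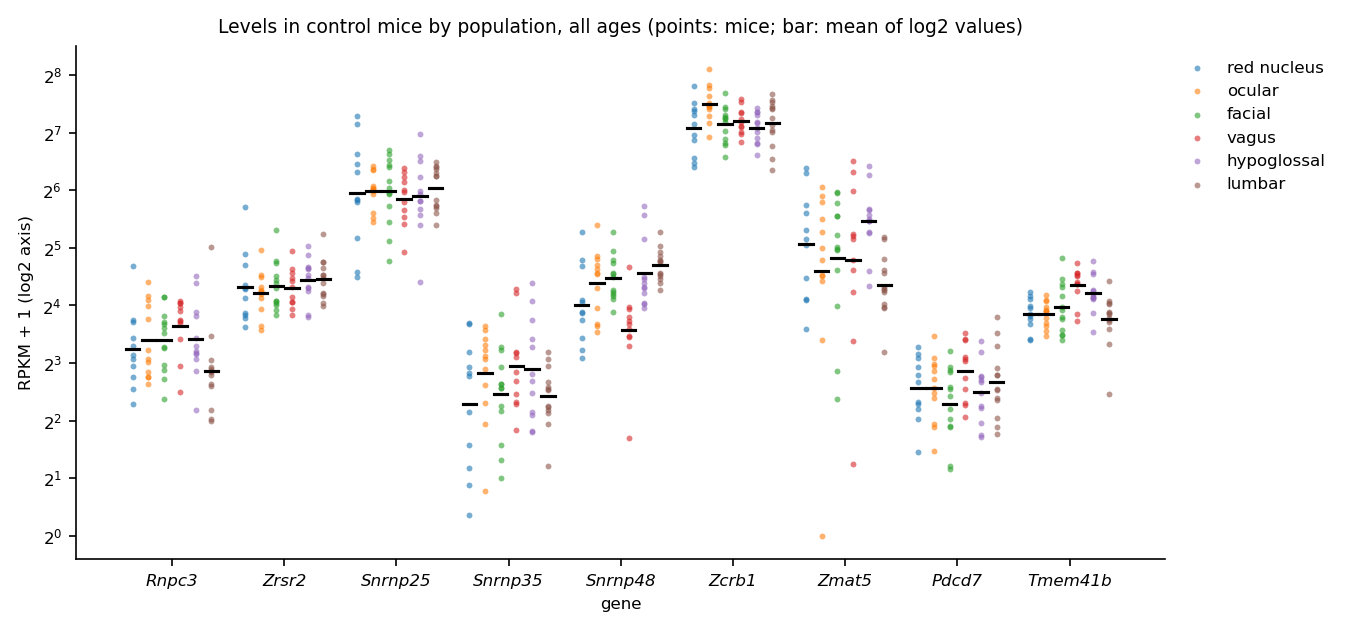
RPKM + 1 (log2 axis) of the 9 genes in control mice, with a point for each mouse at any age, a colour for each population and a bar at the mean of the log2 values. Zcrb1 lies highest in all 6 populations, Snrnp48 is lowest in the vagus, and Tmem41b is highest there.

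Populations were compared in controls with limma on log2(RPKM + 1), averaged over the 3 ages, with p adjusted over 22270 genes. Each mouse gave 1 sample per population, and the samples of a mouse from different populations entered as independent. The p-values measure the spread of such samples within groups, SMA groups included, and leave the pairing by mouse aside. The lumbar controls of day 5, which held the added reads, entered every comparison with the lumbar cord. The part of those reads was not tested. Snrnp48 (adjusted p = 1.72e-06) and Tmem41b (adjusted p = 0.00357) differed among the 6 populations, which was 2 of the 9 genes against 42.5% of all genes tested. Of the 135 pairwise comparisons of the members, 14 passed, or 10.4%, against 16.8% over all genes.

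Snrnp48 was lowest in the vagus, at 2.24, 11.8 and 24.3 RPKM (lowest, median and highest of 11 control samples). In lumbar motor neurons its control values were 18.3, 26.1 and 37.7 RPKM (13 samples), and in the red nucleus they were 7.5, 13.8 and 37.6 (11 samples). The highest red nucleus value came from the library with the fewest reads (0.342 M). The highest vagus sample lay among the lumbar ones, so the ranges overlapped, but the vagus median was below every lumbar value. On the log2 scale the vagus was lower than the lumbar cord by 1.12 (difference -1.12, SE 0.197, limma adjusted p = 1.19e-06). The vagus was also lower than the hypoglossal nucleus (difference -0.96), and the facial (0.90) and ocular (0.79) nuclei were higher than the vagus, with adjusted p of 5.52e-05, 0.000123 and 0.000927. The red nucleus was lower than the lumbar cord (-0.74, adjusted p = 0.00227), hypoglossal (-0.59, adjusted p = 0.024) and facial nuclei (-0.53, adjusted p = 0.0463). From high to low the mean log2 levels ran lumbar, hypoglossal, facial, ocular, red nucleus, vagus, and no neighbouring pair in that order passed the test. Of the 7 differences, the 4 with the vagus and that between red nucleus and lumbar cord stayed past the threshold when each of 15 control mice was left out. The red nucleus and hypoglossal difference was lost without mouse 29, 30 or 75, and that with the facial nucleus in 9 of 15 cases, with each library as its own sample (adjusted p = 0.0521), with no filter (0.0611) and after quantile normalization (0.0587). Markers of other cells differed between the same populations. The oligodendrocyte markers summed to a mean of 29.6 RPKM (15.4 to 65.96) in the control vagus and 279 (6.50 to 1028) in the lumbar cord, with means of 141 to 209 in the other 4 populations, and 4 of the 5 were lower in the vagus than in the lumbar cord. The microglia sum was highest in the vagus, at 30.1 RPKM (12.6 to 62.0), against 8.21 (0.190 to 15.7) in the lumbar cord, with 1 of 5 markers higher. The astrocyte sums were 45.6 and 41.7 RPKM, with 1 of 5 markers higher and 1 lower. The part of these cells in the differences of Snrnp48, and in those of Tmem41b and Rnpc3 between the same populations, was not tested.

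For Tmem41b the ends of the order changed places, with the vagus first and the lumbar cord last. It was highest in the vagus, at 12.2, 20.2 and 25.5 RPKM (lowest, median and highest, 11 samples), and the hypoglossal nucleus followed at 10.6, 17.1 and 26.4 (12 samples). Lumbar motor neurons had 4.49, 13.5 and 20.4 RPKM (13 samples) and ocular motor neurons 10.0, 14.0 and 17.2 (12 samples). The ranges overlapped between all these populations. The vagus was higher than the lumbar cord by 0.57 on the log2 scale (SE 0.154, limma adjusted p = 0.00191). The ocular nuclei (-0.50, adjusted p = 0.0102) and the red nucleus (-0.49, adjusted p = 0.0152) were below the vagus, and the hypoglossal nucleus was above the lumbar cord (0.44, adjusted p = 0.0369). The order of mean log2 levels was vagus, hypoglossal, facial, red nucleus, ocular, lumbar, and no neighbouring pair passed. The differences of the vagus from the ocular nuclei and from the lumbar cord held without any 1 control mouse. That with the red nucleus was lost without mouse 26 (adjusted p = 0.10) and after quantile normalization (adjusted p = 0.05004). Hypoglossal against lumbar was lost after quantile normalization (adjusted p = 0.12), with each library as its own sample (adjusted p = 0.051) and in 6 of 15 cases with 1 mouse left out.

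Zcrb1 was higher in the ocular nuclei, at 120.2, 176.02 and 275 RPKM (lowest, median and highest, 12 samples), than in the red nucleus, at 83.4, 141 and 224.3 (11 samples), or the hypoglossal nucleus, at 96.7, 138 and 170.9 (12 samples). These ranges overlapped. The red nucleus was lower than the ocular nuclei by 0.44 (difference -0.44, SE 0.152, limma adjusted p = 0.0309), and the ocular nuclei exceeded the hypoglossal by 0.42 (adjusted p = 0.0411). Leaving out 1 control mouse lost the first in 5 of 15 cases and the second in 9 of 15. The second was also lost with each library as its own sample (adjusted p = 0.05195) and with no filter (0.056). Rnpc3 was higher in the vagus (4.63, 12.4 and 16.0 RPKM) than in the lumbar cord (2.96, 6.22 and 31.2 RPKM). The log2 difference was 0.79 (SE 0.272, limma adjusted p = 0.0192), and it was lost without mouse 247 (0.71, adjusted p = 0.0561) or mouse 252 (0.72, adjusted p = 0.0578). For Snrnp25, Snrnp35, Zmat5, Pdcd7 and Zrsr2 no pair of populations passed the test.

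SMA mice were compared with controls within each population and age, 18 contrasts in all, to ask whether the loss of Smn came with a change in these mRNAs. No member passed in any of them: 0 of 162 tests, against 0.129% (382 of 296595) over all genes. Below an unadjusted p of 0.05 lay 10 of the 162 (6.17%), 7 higher and 3 lower in SMA, against 7.10% of all tests, and the lowest limma adjusted p was 0.311. The SMA and control mice did not overlap in 2 of 162 contrasts (1.23%), Rnpc3 in the lumbar cord at day 5 and Zrsr2 in the red nucleus at day 10, against 3.06% over all genes. The width of the intervals differed between genes. For Tmem41b and Zcrb1 the 95% interval of the log2 difference stayed between -1 and 1 in 18 of 18 contrasts, for Zrsr2 in 16 and for Snrnp48 in 13. For Snrnp25 that count was 5, for Pdcd7 4, for Rnpc3 and Zmat5 3 each, and for Snrnp35 1.

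**Figure D2:**
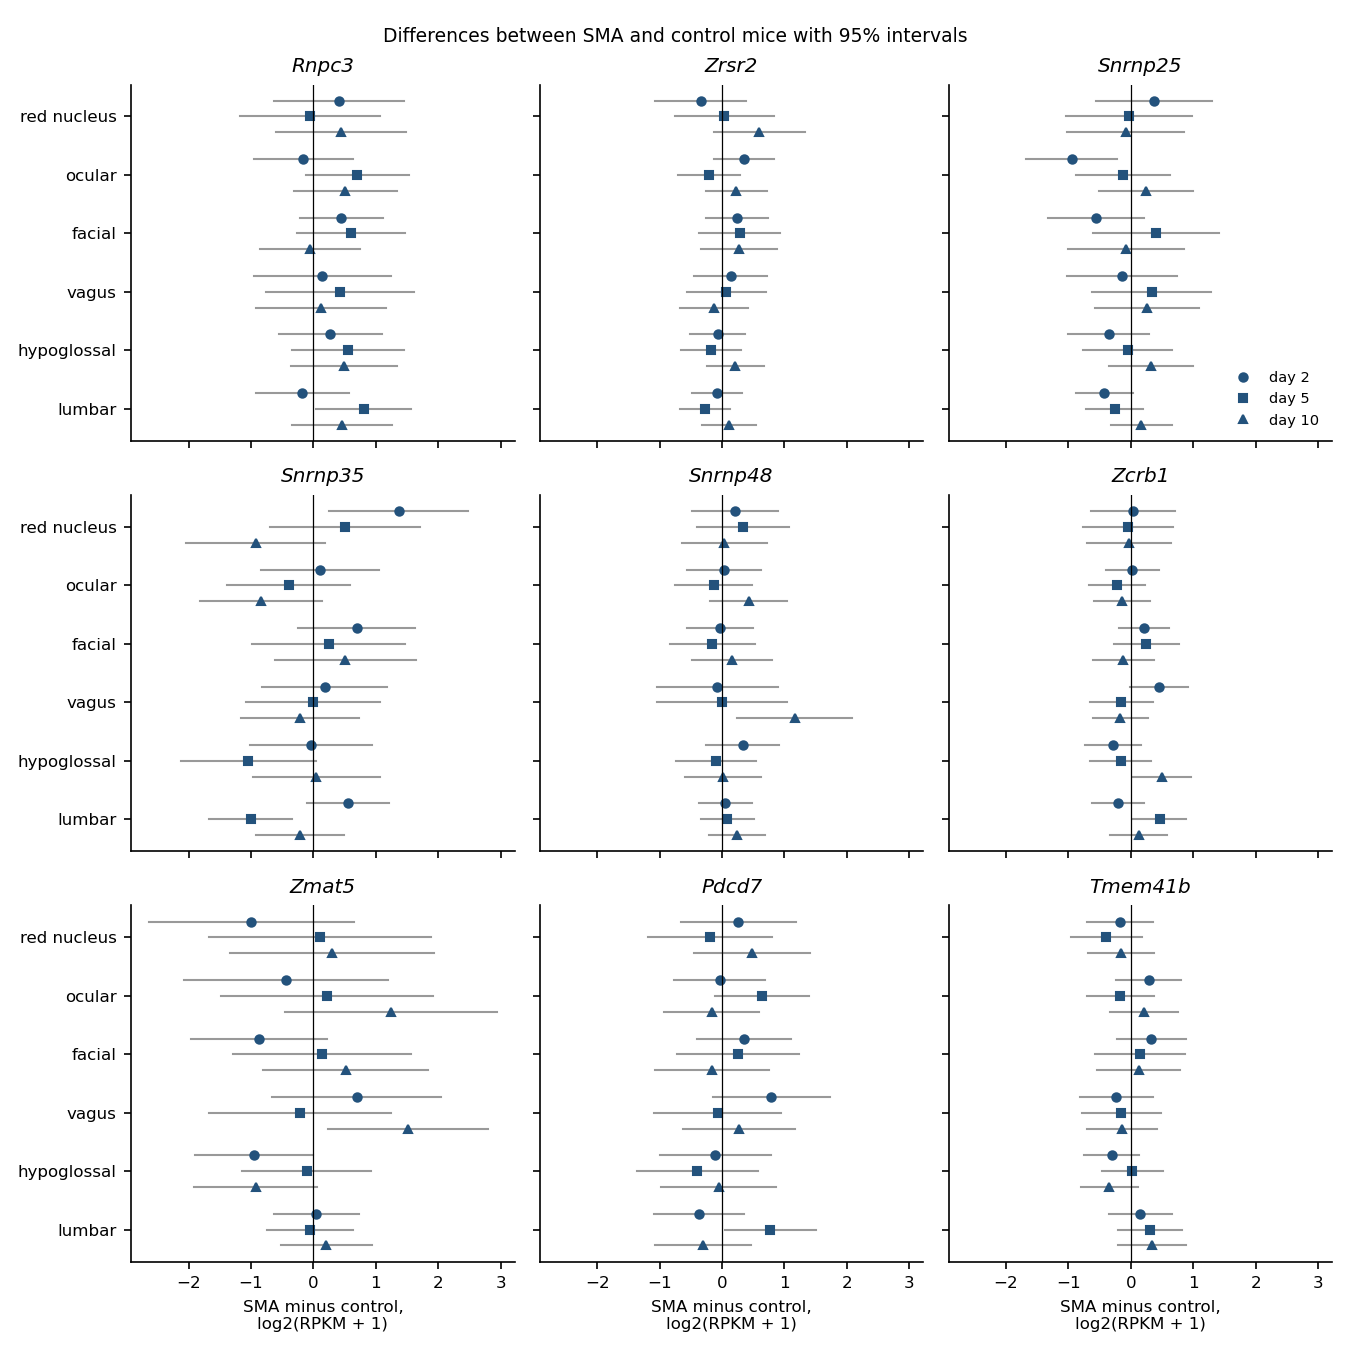
SMA minus control on the log2(RPKM + 1) scale for the 9 genes, with 1 row per population and age, the symbol giving the age and the line the 95% interval. No difference passed the adjusted threshold. Intervals are narrow for Tmem41b and Zcrb1 and wide for Zmat5 and Snrnp35.

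Tmem41b, the Stasimon gene, did not pass in any of 18 contrasts. In the lumbar cord at day 10 the control mice had 11.1, 13.6, 15.2 and 16.0 RPKM and the SMA mice 13.8, 14.7, 18.5, 20.1 and 23.8. The 3 highest SMA mice lay above all controls and the other 2 among them, and the log2 difference was 0.34 (SE 0.265, limma adjusted p = 0.741). At day 5 the lumbar controls had 4.49, 9.11, 12.5, 13.5 and 20.4 RPKM and the SMA mice 8.55, 12.6, 13.2, 16.9 and 19.1. The lowest and the highest value were both from controls, and the difference was 0.30 (adjusted p = 0.814). At day 2 the lumbar controls had 12.2, 12.8, 13.9 and 15.5 RPKM, within the SMA range of 10.8 to 19.2 (median 15.1, 7 mice), and the difference was 0.15.

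In the other 15 contrasts the estimates for Tmem41b went either way, 6 above and 9 below 0, from -0.39 to 0.33. The lowest was in the red nucleus at day 5, where controls had 12.6, 13.5 and 14.5 RPKM and SMA mice 6.61, 9.24, 12.2 and 13.4. The groups overlapped, and the difference of -0.39 (95% interval -0.96 to 0.17) did not pass (limma adjusted p = 1). In the hypoglossal nucleus at day 10 controls had 16.6, 16.8, 22.9 and 26.4 RPKM and SMA mice 12.7, 14.8, 15.9, 16.9 and 19.2. Of the 5 SMA mice, 3 lay below all controls, with a difference of -0.34 (adjusted p = 0.837). In ocular motor neurons at day 10 controls had 11.9, 14.0, 14.2 and 15.9 RPKM and SMA mice 9.75, 16.7, 18.2, 18.9 and 20.2, and the lowest SMA mouse lay below all controls while the other 4 lay above them. The motor neuron marker sum was lower in those SMA mice, as given above, and its part was not tested. Over the 18 contrasts the outer bounds of the 95% intervals were -0.96 and 0.88.

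**Figure D3:**
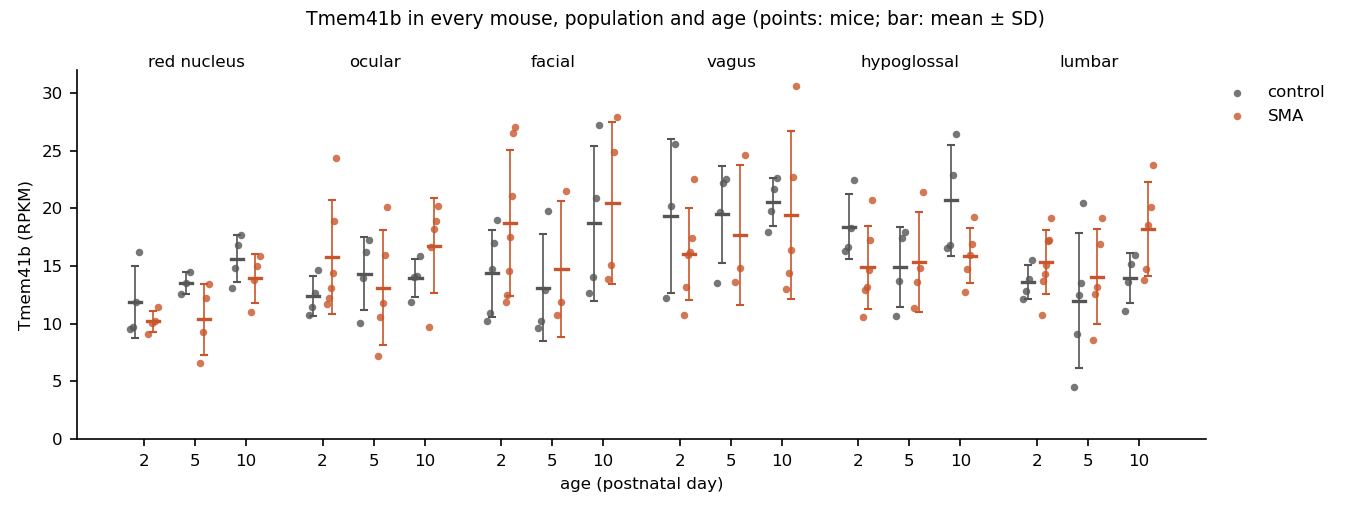
Tmem41b RPKM in every mouse by population and age, control and SMA side by side, with the mean and SD as bars. The lumbar day-10 controls sit between 11.1 and 16.0 and the SMA mice between 13.8 and 23.8, and the genotypes overlap in every population and age.

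Among the U11 proteins and the bridging protein, Rnpc3 had the most one-sided estimates, above 0 in 14 of 18 contrasts (median 0.44, range -0.18 to 0.80). The same mice recur across populations, so the signs are not independent. Over all genes the median difference was also above 0 in every contrast except the lumbar cord at day 2 (-0.008). In the lumbar cord at day 5 the controls had 5.06, 5.23, 5.90, 6.61 and 7.31 RPKM and the SMA mice 7.99, 8.96, 9.50, 14.8 and 17.0. Every SMA mouse was above every control there, with a log2 difference of 0.80 (SE 0.369, limma adjusted p = 0.581). At day 10 the lumbar controls had 2.96, 3.07, 3.54 and 6.28 RPKM and the SMA mice 4.004, 4.08, 4.76, 4.90 and 13.8, and the highest control lay above 4 of the 5 SMA mice. At day 2 the ranges were 6.22 to 31.2 in 4 controls (the others at 6.49 and 10.0) and 5.50 to 24.8 in 7 SMA mice (median 7.36). The Rnpc3 exons overlap those of Amy1 on the same strand, and how reads of shared bases were counted is not given in the sources used here.

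In the lumbar cord at day 5, 4 of the 9 members lay below an unadjusted p of 0.05 (8.14% of all genes did). This is the age at which the controls held the added reads, so those reads and the genotype cannot be told apart. Besides Rnpc3 they were Pdcd7, Zcrb1 and Snrnp35. Pdcd7 was at 2.39, 2.70, 3.14, 5.94 and 6.51 RPKM in controls and 2.52, 8.01, 8.59, 8.82 and 12.1 in SMA mice, where 4 of 5 exceeded all controls (difference 0.77, limma adjusted p = 0.581). Zcrb1 was at 80.4, 92.1, 108, 132 and 139 RPKM in controls and 88.7, 145, 150.02, 162.6 and 234.3 in SMA mice, again with 4 of 5 above all controls (0.46, adjusted p = 0.574). Snrnp35 was at 2.86, 4.79, 4.85, 4.98 and 8.11 RPKM in controls and lower, at 0.527, 2.04, 2.17, 2.64 and 3.07, in SMA mice. Of the 5 SMA mice, 4 were below every control, with a difference of -1.01 (SE 0.326, adjusted p = 0.331). Gfap in the same samples averaged 1.70 ± 1.28 RPKM in 5 controls and 19.8 ± 28.2 in 5 SMA mice (adjusted p = 0.102). The sum of the 5 astrocyte markers was 35.7 (25.6 to 41.8) and 65.96 (23.8 to 111.97) and that of the oligodendrocyte markers 84.4 and 81.7, none of them past the threshold, and their part in these differences was not tested.

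Snrnp35, the relative of Snrnp70, lay on either side of 0 in 9 contrasts each. In the red nucleus at day 2 it was at 0.280, 1.26, 3.41 and 6.59 RPKM in controls and 3.37, 6.48, 9.64 and 11.3 in SMA mice, with 2 SMA mice above all controls (difference 1.37, SE 0.538, limma adjusted p = 0.440). The oligodendrocyte gene Mbp rose in SMA in those samples, from 2.55 to 13.9 RPKM (adjusted p = 0.0351). It was the only one of the 5 oligodendrocyte markers to pass, their sum was 6.97 RPKM (5.01 to 11.6) in controls and 22.1 (11.9 to 32.3) in SMA mice, and their part was not tested. Over all genes the median difference in this contrast was 0.11, and in the day-10 red nucleus it was 0.13. At day 10 in the red nucleus Snrnp35 was at 5.87, 8.13, 11.7 and 12.02 RPKM in controls and 2.92, 3.07, 5.28 and 6.93 in SMA mice. The order of the genotypes was thus the opposite of that at day 2, though the groups overlapped at both ages. Mouse 252, 1 of the day-10 controls, had a library of only 0.342 M reads. A change of the genotype difference over the 3 ages was tested directly in each population, and no member passed in 54 tests (0.0344% of all genes did). The lowest p for a member was Snrnp35 in the lumbar cord (limma adjusted p = 0.442).

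Snrnp48 had 12 of 18 estimates above 0, again with mice shared across populations, and a median of 0.04. Its highest was in the vagus at day 10, where controls had 2.24, 8.77, 12.2 and 14.3 RPKM and SMA mice 12.1, 14.4, 19.5, 26.1 and 27.5. Of the 5 SMA mice, 4 exceeded all controls, with a difference of 1.16 (SE 0.447, limma adjusted p = 0.992). Zmat5 in the same samples was at 1.36, 9.41, 36.1 and 79.3 RPKM in controls and 32.3, 37.5, 38.7, 44.8 and 96.05 in SMA mice, and the groups overlapped broadly (1.51, SE 0.621, adjusted p = 1). In the hypoglossal nucleus at day 2 Zmat5 was at 19.2, 37.5, 76.4 and 84.7 RPKM in controls and 9.99, 28.3 and 46.3 (lowest, median and highest of 6) in SMA mice, a difference of -0.95 (adjusted p = 0.518). Zmat5 exons overlap those of Cabp7 on the opposite strand, and the use of strand in counting is not given in the sources used here.

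Snrnp25 was below 0 in 11 of 18 contrasts. In the ocular nuclei at day 2 its controls had 47.7, 62.6, 80.6 and 85.2 RPKM and SMA mice 12.1, 41.7 and 73.7 (lowest, median and highest of 6), with some SMA mice among the controls. That difference was -0.95 (SE 0.354, limma adjusted p = 0.311). Zcrb1 in the hypoglossal nucleus at day 10 was at 96.7, 110.7, 112.6 and 146 RPKM in controls and 122.9, 154, 155, 160.9 and 247 in SMA mice, 4 of which exceeded all controls (0.50, adjusted p = 0.699). Zrsr2, the 3′ splice site factor, was at 11.3, 13.2, 13.6 and 18.4 RPKM in control red nucleus at day 10 and at 18.7, 19.7, 21.3 and 27.7 in SMA mice. These groups did not overlap, and Zrsr2 did not pass there or in any other contrast (lowest adjusted p = 0.594). The control at 13.6 RPKM, mouse 252, had a library of only 0.342 M reads. Zrsr1, a close paralog of Zrsr2, has its own row in the table, and reads shared by the copies are uncertain.

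**Figure D4:**
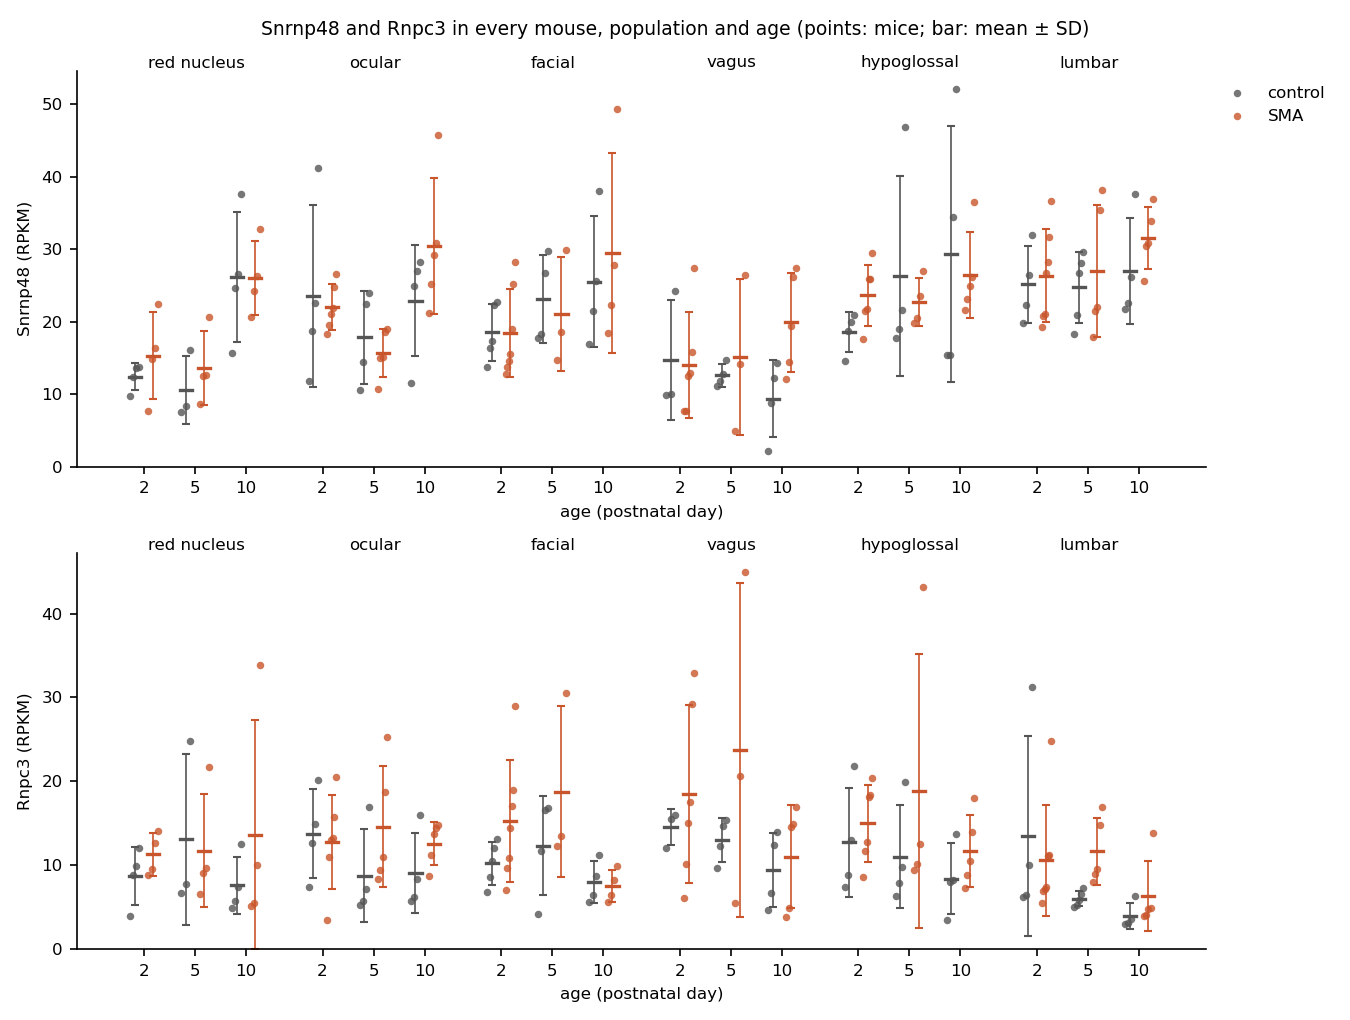
Snrnp48 and Rnpc3 RPKM in every mouse by population and age, control and SMA side by side, with the mean and SD as bars. Snrnp48 is lowest in the control vagus, and Rnpc3 in the lumbar cord shows no overlap of the genotypes at day 5 (7.31 in the highest control, 7.99 in the lowest SMA mouse).

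Age was compared within each genotype, day 10 against day 2, in different mice. Of the 108 tests of members 2 passed, both in controls, against 7.06% of all tests in controls and 7.39% in SMA mice. Rnpc3 in lumbar controls fell from 13.5 ± 11.9 RPKM (SD, n = 4) to 3.96 ± 1.56 (n = 4). The log2 difference was -1.29 (SE 0.413, limma adjusted p = 0.0369), in a contrast where 7.25% of all genes passed as lower (5.76% after quantile normalization). A day-2 control at 31.2 RPKM, mouse 244, stood above the others, and without it the difference was -0.81 (adjusted p = 0.228). The call was also lost without mouse 240, 247, 252 or 253, and under 4 of 5 other settings, with adjusted p up to 0.0872. The median over all genes in this contrast was -0.10, and after quantile normalization, which brought it to 0.00, Rnpc3 was at -1.16 (adjusted p = 0.0625). Estimates for Rnpc3 were below 0 in 6 of 6 control populations and 5 of 6 SMA populations, the SMA lumbar value being -0.65 (adjusted p = 0.200). Between the same lumbar controls the oligodendrocyte markers rose from a sum of 26.6 RPKM (6.50 to 37.2) to 775 (477 to 1028), 5 of 5 passing, and the astrocyte sum went from 28.5 to 62.3, with 2 of 5 passing as higher. Their part in the Rnpc3 difference was not tested.

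Snrnp35 in control red nucleus rose from 2.89 ± 2.80 RPKM (SD, n = 4) at day 2 to 9.44 ± 2.97 (n = 4) at day 10. Mouse 252, 1 of the day-10 controls, had a library of only 0.342 M reads. The values of 0.280 to 6.59 and of 5.87 to 12.02 overlapped, and the difference was 1.69 (SE 0.538, limma adjusted p = 0.0449), where 5.72% of all genes passed as higher. The call was lost in 7 of 8 cases in which 1 mouse was left out, with estimates from 1.26 to 2.11, and under 4 of 5 other settings, with adjusted p up to 0.116. In the same controls the sum of the oligodendrocyte markers rose from 6.97 RPKM (5.01 to 11.6) to 417.9 (293.1 to 587), 5 of 5 passing, and their part was not tested. In SMA red nucleus the difference was -0.61 (adjusted p = 0.617). The other 7 genes passed in no population of either genotype.

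SMA and control were also compared averaged over the 6 populations at each age, with the mouse as a random block, since most mice gave several samples. The lumbar controls with the added reads entered the day-5 average. Again 0 of 27 tests of members passed, against 1.54% of all genes at day 2, 0.117% at day 5 and 1.78% at day 10. The median log2 difference of the 9 genes was 0.04, 0.01 and 0.14 at days 2, 5 and 10, and over all genes it was 0.04, 0.04 and 0.05. Tmem41b was at 0.00 (95% interval -0.21 to 0.21), -0.03 (-0.26 to 0.20) and 0.01 (-0.22 to 0.23). Zcrb1 was as near 0, at 0.04, 0.03 and 0.03. The members farthest from 0 were Rnpc3 at day 5 (0.50, SE 0.205, limma adjusted p = 0.423) and Snrnp35 (0.48, adjusted p = 0.276) at day 2.

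Single mice moved these averages. Rnpc3 at day 5 was 0.18 (limma adjusted p = 1) without SMA mouse 31, which had the highest SMA value in 5 of 6 populations. Snrnp48 at day 10 was 0.34 (SE 0.143, adjusted p = 0.306), and without control mouse 252, the highest control in 5 of 6 populations, it was 0.55 and passed (adjusted p = 0.0357). The red nucleus library of that mouse had the fewest reads (0.342 M).

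The minor spliceosome shares many proteins with the major one, and these were listed beside the members. Of 13 other minor-spliceosome factors 11 were in the table, and none passed in 33 averaged tests or in any contrast by population. Their medians were -0.01, 0.11 and 0.22. The U11 and U12 snRNAs themselves were listed at 0 in most samples, in libraries made from polyA RNA. Rnu11 was at 0 in 61 of 72 control and 79 of 88 SMA samples, and Rnu12 in 69 of 72 and 71 of 88. The 3 U1 proteins gave 0 calls in 9 averaged tests.

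Among the 7 SF3b proteins, which bind the branch point in both spliceosomes, 4 of 21 averaged tests passed (19.0%), each higher in SMA, against 1.15% of all genes over the 3 ages. At day 10, the age of 3 of the 4, 1.53% of all genes passed as higher. The SF3b list was chosen with earlier results of these data known, so its share of calls is a description. Sf3b4 rose at day 2 from a mean of 5.77 to 8.77 RPKM (log2 difference 0.51, SE 0.112, limma adjusted p = 0.00345) and at day 10 from 4.68 to 6.62 (0.43, adjusted p = 0.0299). Sf3b5 rose at day 10 from 96.1 to 155 RPKM (0.72, SE 0.133, adjusted p = 9.3e-05), and Sf3b1 from 30.1 to 36.5 (0.28, adjusted p = 0.0169). All 7 estimates were above 0 at day 10, with a median of 0.28. In a single population Sf3b5 passed in the lumbar cord at day 10, where its mean was 91.1 ± 20.6 RPKM in 4 controls and 189.5 ± 16.7 in 5 SMA mice (1.07, SE 0.236, adjusted p = 0.0201), without overlap. In that contrast 0.775% of all genes passed. The call was lost without mouse 247, 250, 252 or 253 and with the mouse as a block in a fit of all groups (adjusted p = 0.0711).

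Of 12 proteins of U5 and the tri-snRNPs, the particles that bring in U5, 3 of 36 averaged tests passed (8.33%). The share over all genes was the same 1.15%. All 3 calls were at day 10 and higher in SMA. These proteins were listed as shared by both spliceosomes, with earlier results of these data known, so their share is a description. Eftud2, also planned for this list, was not among the 12. Prpf31, which holds the particle together, rose from 47.6 to 88.4 RPKM (0.95, SE 0.159, limma adjusted p = 7.96e-06). Prpf8, the core of the catalytic site, rose from 14.2 to 20.2 RPKM (0.45, adjusted p = 0.00153), and Txnl4a from 190.8 to 285 (0.55, adjusted p = 0.0242). Prpf31, Sf3b5 at day 10 and Sf3b4 at day 2 stayed past the threshold without any 1 mouse. The other 4 calls did not. Txnl4a was lost in 5 of 9 cases (without mouse 199, 249, 250, 253 or 258), with estimates down to 0.39 and adjusted p up to 0.309 without mouse 253. Sf3b4 at day 10 was lost in 3 of 9 (mouse 196, 252 or 254, adjusted p up to 0.162), Sf3b1 in 2 of 9 (mouse 249 or 253, adjusted p up to 0.117) and Prpf8 in 1 of 9 (mouse 247, adjusted p = 0.0509). Quantile normalization also lost Sf3b1 (adjusted p = 0.0591) and Sf3b4 at day 10 (adjusted p = 0.222). Gfap differed between the genotypes in the same direction at day 10, from 5.21 to 10.98 RPKM, as did the sum of the astrocyte markers given above, and their part was not tested.

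**Figure D5:**
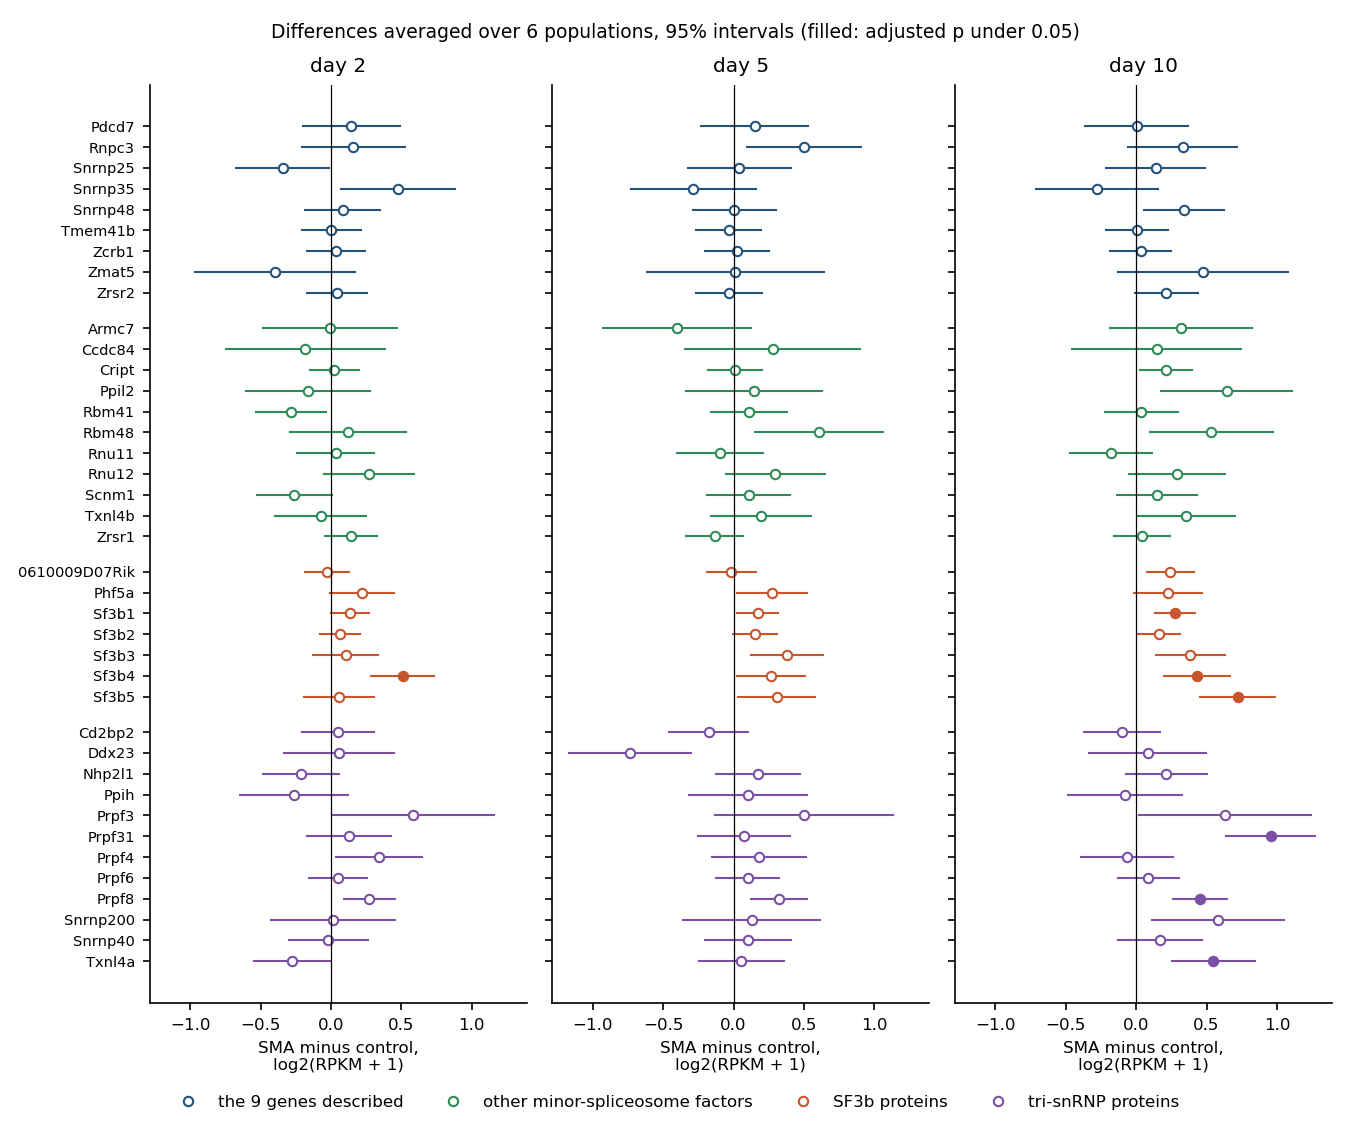
SMA minus control averaged over 6 populations at each age on the log2(RPKM + 1) scale, with 95% intervals and filled points for adjusted p under 0.05. No filled point falls among the 9 genes or the other minor-spliceosome factors. Filled points lie at Sf3b4 (0.51) on day 2 and at Sf3b1, Sf3b4, Sf3b5, Prpf31 (0.95), Prpf8 and Txnl4a on day 10.

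Genes other than Tmem41b that are spliced by the minor spliceosome were examined as a recalled list of 8: Scn8a, Cacna1a, Mapk8, Mapk9, Mapk14, Stk11, Clcn7 and Polr2e. None of the 8 passed in 144 tests by population or in 24 averaged tests. The 140 genes in the table with an intron that begins with the U12-type letters shown above gave 2 calls in 2331 tests by population (0.0858%, against 0.129% over all genes). Armc9 was lower in the facial nucleus at day 10, 47.3 against 14.8 RPKM (-1.91, limma adjusted p = 0.0329), and Dcaf4 was higher in the lumbar cord at day 10, 7.60 against 23.4 (1.55, adjusted p = 0.0497). Averaged over populations, 6 of 408 tests passed (1.47%, near the 1.15% over all genes). Ubl5, a small ubiquitin-like splicing protein, was higher at day 2 (0.29). At day 10 Cep170 (0.39), Ercc5 (0.57) and Lsm5 (0.60) were higher, and Mapk11 (-0.70) and Sms (-0.29) were lower. The median over the list was 0.03, 0.03 and 0.04 at days 2, 5 and 10.

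The genes whose pattern was most like each member were found by Pearson correlation of the mean log2 levels of the 36 groups, among 14018 genes tested in all populations. The groups share mice and differ in depth, and the values are descriptions. Snrnp48 had the closest neighbours, Pnkd (r = 0.887), Nfic (0.869) and Stard10 (0.864). Rnpc3 was nearest to Tnfaip1 (0.815), Ppig (0.811) and Ncoa2 (0.809), and Tmem41b to Nedd8 (0.775), Elmo2 (0.756) and Ptpdc1 (0.753). Zrsr2 was nearest to Pex19 (0.738), Snrnp35 to Phf23 (0.678), Zmat5 to Gm15422 (0.685), Pdcd7 to Pdxp (0.633), Snrnp25 to H2-Eb1 (0.607) and Zcrb1 to Chst15 (0.607). Between members the closest pair was Snrnp35 and Tmem41b (0.443), followed by Snrnp25 and Zmat5 (0.408). The nearest gene was picked from 14018 and the nearest member from only a few. The sizes of these r therefore cannot be set against each other.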

How the data were processed

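The authors deposited a table of RPKM per gene (39410 genes, 168 libraries), and per the labels' protocols the libraries were made from polyA RNA by Smart-seq2. The submitters' processing notes name STAR 2.4.1c and the builds mm10 and hg19, and the read counter and annotation are not given in the sources used here. Libraries that shared a mouse and population were joined by their mean RPKM, so each mouse counts once per group. Tests used limma 3.58.1 (R 4.3.3; lmFit, eBayes with trend) on log2(RPKM + 1), so fold changes of low genes are understated. Genes needed an RPKM of at least 1 in as many samples as the smallest group. P-values are two-sided and adjusted by Benjamini and Hochberg within a contrast, with a threshold of 0.05. SMA contrasts, their change with age and the age contrasts came from 1 fit per population. Population and averaged contrasts came from 1 fit of 36 groups, the latter with the mouse as a block (correlation 0.0366), which pairs samples because the labels name the mouse. Depth was estimated from the steps between low RPKM values of single-transcript genes, and floors of 3 reads cover counting error only. In simulated data 60% and 93% of genes changed by 1 and 2 log2 units were recovered for the lumbar cord at day 10 (16382 genes). For the vagus at day 10 the shares were 33% and 85%. The simulation drew independent normal errors and changed only genes with a mean log2(RPKM + 1) above 3. It changed more genes than passed in the 2 real contrasts, which eases the adjusted threshold, so the shares may overstate recovery. In the real vagus contrast at day 10, 0% of all genes passed as higher and 0.00599% as lower. Pdcd7 and Snrnp35 averaged 2.57 and 2.64 in controls, so these shares do not cover genes at such levels. Positions and sequences came from GENCODE M21 (GRCm38). The rule for named genes was Smn1, all members, listed genes that passed, and the 3 nearest genes of each member. The members and lists were chosen with earlier results of these data known.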

Additional observations from a re-analysis of the deposited data

Results flagged for a closer look

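Within groups of 4 to 7 mice, a single mouse stood apart from the rest by Dixon's criterion in 18 of 288 groups of members (6.25%), where chance gives about 1 in 20. Rnpc3 had 6 of these, each a high value. They were 43.2 RPKM in SMA mouse 31 (hypoglossal, day 5), 33.8 in SMA mouse 199 (red nucleus, day 10), 13.8 in SMA mouse 196 (lumbar, day 10), 24.8 in SMA mouse 206 (lumbar, day 2), 31.2 in control mouse 244 (lumbar, day 2) and 16.9 in control mouse 29 (ocular, day 5). The next highest mice of those groups lay between 4.90 and 12.5 RPKM. Zrsr2 was high in SMA mouse 38 (facial, day 2, 42.5 RPKM) and control mouse 252 (facial, day 10, 26.2). Snrnp35 was high in SMA mouse 206 (facial, day 2, 20.9 RPKM) and low in control mouse 28 (lumbar, day 2, 1.33) and SMA mouse 31 (ocular, day 5, 1.47). Snrnp48 was high in control mouse 29 (hypoglossal, day 5, 46.8 RPKM). Zmat5 was high in control mouse 244 (lumbar, day 2, 35.5 RPKM), control mouse 28 (red nucleus, day 2, 77.8) and SMA mouse 250 (vagus, day 10, 96.05). Pdcd7 was high in SMA mouse 249 (facial, day 10, 7.72 RPKM) and SMA mouse 31 (red nucleus, day 5, 12.4) and low in SMA mouse 199 (hypoglossal, day 10, 1.20). Mouse 31 supplied 3 of the 18, and Snrnp25, Zcrb1 and Tmem41b none. The causes were not tested.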

How the results depend on the processing

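The absence of calls for members between SMA and control by population (0 of 162) and for the change with age held under a pseudocount of 0.1, no filter, quantile normalization, each library as its own sample, and with each of 34 mice left out. The first also held with only the groups compared, without the library with the fewest reads, with ocular libraries of both nuclei (which left no value at day 5), and with the mouse as a replicate block in a fit of all groups (0 calls). With the replicate block the population comparison gave 14 pairwise calls and 2 calls of the F test; other settings lost 1 or more of 4 pairwise calls, as given beside Snrnp48, Tmem41b and Zcrb1. The count of 2 in the age comparison became 1 with a pseudocount of 0.1 (Rnpc3) and with each library as its own sample (Snrnp35). Quantile normalization also gave 1, but it lost both the Rnpc3 and the Snrnp35 call, so that 1 was a different one. With no filter and with only the groups compared the count was 0, and leaving out a mouse gave 0 to 3. Averaged over populations, leaving out a mouse gave 0 to 1 member calls, and without the replicate block there were 0. The SF3b proteins went from 4 calls to 2 with quantile normalization (5 without the replicate block). The U1 proteins went from 0 to 1 without the replicate block, and leaving out a mouse gave 0 to 1 (1 without mouse 196). The recalled list of U12-type genes went from 0 to 2 calls by population with the 140 genes read from transcripts and stayed at 0 with the 25 that also held a branch point, both lists added after the data were seen. The planned searches of the genome for U12-type introns were not run. No called value reversed, and 458 of 6945 uncalled values changed sign. The causes were not tested. Depth was lowest, 0.342 M reads, in 1 red nucleus control. The simulated recovery of a log2 change of 1 was 33% in the vagus at day 10 (16703 genes). That share may be too high, so changes of this size or smaller could be missed.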
